A study of Homo sapiens with 5 samples.

Results

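The TEAD4 binding described here is that at 10 genes of the Notch pathway: the receptors NOTCH1, NOTCH2 and NOTCH3, the ligands JAG1, JAG2 and DLL4, and the target repressors HES1, HEY1, HEY2 and HEYL. A peak was assigned to a gene when its summit, the base of highest signal, lay in the gene body or within 50 kb of any transcription start site (TSS) of the gene in GENCODE release 44 on hg38. By this rule 13 of the 21113 peaks in the list were assigned, and 7 of the 10 genes had at least 1. The list came from TEAD4 ChIP-seq in LX-2 cells, a human hepatic stellate cell line used as a model of myofibroblastic hepatic stellate cells. All cultures received the solvent DMSO alone, so no treated group enters, and 3 TEAD4 replicates were sequenced with 2 input chromatin samples. The list combines replicates 1 and 3, which were the concordant ones, and gives no value per replicate. The depth of each sample is therefore unknown, and the intervals below cover counting error over peaks or genes only. Neither the expression of these genes nor markers of LX-2 cells were measured in the list.

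Notch receptors are cleaved when a ligand of the Jagged or Delta-like families on a neighbouring cell binds them. The released intracellular part enters the nucleus, joins the DNA-binding protein RBPJ and Mastermind coactivators, and switches on target genes, above all the HES and HEY families of transcriptional repressors. In the liver this signalling is known for the formation of bile ducts, where JAG1 and NOTCH2 are required, and for its part in stellate cell activation and fibrosis. TEAD4 is a DNA-binding partner of the Hippo pathway coactivators YAP and TAZ, and the TEAD motif searched here was ACATTCC.

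Sequences are shown for 8 of the peaks that were the strongest or the nearest to a TSS of their gene and that held a searched motif within 40 bp of the summit, since these letters are what the comparison of motifs rests on. Each is the plus strand of hg38, 5′ to 3′, with the summit at its central base. Capitals mark the TEAD motif ACATTCC in the first 4, together with the E-box CAGATG in that of HES1, which stands before the TEAD motif. In the fifth they mark the palindrome CACGTG, which HES and HEY proteins can bind, followed by CATTCC, the 6-letter core of the TEAD motif, and in that of HEYL the core alone. In the last 2 they mark the AP-1 motif (TGACTCA or TGAGTCA), bound by FOS and JUN proteins. GGAATGT in the JAG1 sequence is the TEAD motif on the minus strand.
HES1 upstream peak, chr3:194089675-194089755: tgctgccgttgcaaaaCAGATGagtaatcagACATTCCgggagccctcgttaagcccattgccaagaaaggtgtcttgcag
JAG1 upstream peak, chr20:10708951-10709031: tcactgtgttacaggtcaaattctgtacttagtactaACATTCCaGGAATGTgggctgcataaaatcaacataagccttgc
NOTCH1 nearest peak, chr9:136568130-136568210: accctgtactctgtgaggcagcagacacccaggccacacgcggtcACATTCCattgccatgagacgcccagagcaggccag
NOTCH2 upstream peak, chr1:120143183-120143263: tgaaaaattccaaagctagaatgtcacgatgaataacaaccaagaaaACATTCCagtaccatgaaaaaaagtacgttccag
DLL4 peak, chr15:40941542-40941622: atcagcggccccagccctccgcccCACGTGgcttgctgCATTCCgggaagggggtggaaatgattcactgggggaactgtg
HEYL farther peak, chr1:39672793-39672873: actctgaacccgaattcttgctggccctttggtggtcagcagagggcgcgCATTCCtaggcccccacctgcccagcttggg
NOTCH2 intronic peak, chr1:119987273-119987353: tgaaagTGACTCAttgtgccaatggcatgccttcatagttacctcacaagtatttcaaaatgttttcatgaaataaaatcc
JAG1 intronic peak, chr20:10671657-10671737: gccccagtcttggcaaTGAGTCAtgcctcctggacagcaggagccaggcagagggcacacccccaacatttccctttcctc

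TEAD4 peaks lay at all 3 receptors, at 2 of the 3 ligands and at 2 of the 4 target repressors. The share of the 10 genes with a peak was 70.0% (Wilson 95% interval 39.7 to 89.2%), and the same rule gave a peak to 56.2% of the 20007 protein-coding genes, a background inside that interval. The number of peaks per gene was ordinary as well, with a mean of 1.3 and a median of 1 over the 10 genes against 1.44 and 1 over all protein-coding genes. Genes with many start sites or a long body have wider windows, and per 100 kb of window the median was 0.86 for the 10 genes and 0.67 for all. The means per 100 kb were nearly equal, at 0.99 and 0.97. JAG1 had the most peaks, 4, a number that 11.6% of protein-coding genes reached. NOTCH1, NOTCH2 and HEYL had 2 each, NOTCH3, DLL4 and HES1 had 1 each, and JAG2, HEY1 and HEY2 had none.

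Most of this binding was distal. The summits lay from 263 bp to 49.2 kb from the nearest TSS of their gene, with a median of 33.2 kb, and 9 of 13 lay on its upstream side. Among these 9 is a NOTCH2 summit just upstream of an internal start, which lies inside the gene. Of the 10 genes, 2 had a summit less than 2.5 kb from a TSS, NOTCH2 and JAG1, as did 16.7% of all protein-coding genes. Only 2 of the 13 summits were inside the body of their own gene, both in introns. The rule reaches 50 kb, so it takes in distal summits by design. The median distance and the shares upstream and in the gene body were not set against all assigned peaks. For 8 of the 13 peaks (61.5%, interval 35.5 to 82.3%) the nearest protein-coding TSS was that of the Notch gene, against 54.7% of the assignments of all protein-coding genes. The other 5 were nearest to other genes, among them SEC22B, SLX4IP (2 peaks) and NT5C1A, so an assignment here is a statement of distance and not of the gene that a site acts on.

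The signal value, the peak caller's measure of enrichment, had a median of 71.8 over the 13 peaks (95% interval of the median 44.2 to 171), and the median of the whole list was 68.1, with quartiles of 46.2 and 114. The 13 peaks ran from 35.4 at NOTCH1 to 397 at HES1, and the whole list from 6.57 to 1074. Peaks above the upper quartile lay at HES1, NOTCH1, JAG1 and DLL4. The highest IDR score, 1000, was reached by 10 of the 13 peaks (76.9%), a share close to the 76.1% of the list. IDR, the irreproducible discovery rate, scores how well the rank of a peak repeated between the replicates. The 3 peaks with lower scores were a NOTCH1, a JAG1 and a HEYL peak with scores of 890, 883 and 922, and their signal values were 35.4, 44.2 and 35.4, all below the lower quartile of the list. The −log10 q-value was 4.76, its highest value in the list, in all 13.

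The receptors NOTCH1, NOTCH2 and NOTCH3 are cell-surface proteins whose cleaved part carries the signal to the nucleus. NOTCH1 (chromosome 9, 136494433 to 136546048, minus strand) had 2 intergenic peaks 4085 bp apart, both upstream of its 5′ end. The nearer, chr9:136567948-136568391, lay 22.1 kb upstream with a signal value of 35.4, above 10.4% of the list. It held the TEAD motif with its centre 8 bp from the summit, as printed above, and CACGTG centred 59.5 bp to the other side. The farther, chr9:136572120-136572415, lay 26.2 kb upstream with a signal value of 252 and ranked 1168 in the list. This stronger peak held neither the TEAD motif nor AP-1 but had the RBPJ motif GTGGGAA, the letters bound by the partner of the Notch intracellular part, on the minus strand 78 bp from its summit. For both peaks the nearest protein-coding TSS was that of NOTCH1, while the lncRNA gene NALT1 started closer, 19040 and 23125 bp away. Of all protein-coding genes, 6.7% had a stronger best peak than NOTCH1.

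NOTCH2 (chromosome 1, 119911553 to 120100779, minus strand) had 2 peaks of middling signal at very different places. The peak at chr1:119987091-119987534, with a signal value of 71.8, lay in an intron, 263 bp from the start of an internal transcript annotated as a target of nonsense-mediated decay and 82.3 kb from the canonical TSS. Its AP-1 motif was centred 31 bp from the summit. The second, chr1:120143165-120143275, had a signal value of 81.2 and lay 42.4 kb upstream of the 5′ end in intergenic sequence, where SEC22B, which encodes a vesicle fusion protein, started closer, at 17278 bp. From the canonical NOTCH2 TSS this second peak was 73.6 kb away, so only other starts of the gene brought it into the window. It held the TEAD motif 10 bp from the summit. This peak was 111 bp wide, the narrowest width in the list, which 142 peaks shared. Its sequence had 2 further copies on chromosome 1 that matched over 90% of its length at up to 98.1% identity, so reads from these copies may not be told apart there.

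NOTCH3 (chromosome 19, 15159038 to 15200995, minus strand), the receptor best known from smooth muscle cells and pericytes, had 1 peak, close to the limit of the rule. It lay 49.2 kb upstream, with a signal value of 64.9 and the TEAD motif 15 bp from the summit. Another gene started closer to it than NOTCH3. Beyond the limit, NOTCH3 had a stronger peak with a signal value of 324 and the TEAD motif 58.7 kb from its nearest TSS, where SYDE1 was the nearest protein-coding gene.

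The ligands are membrane proteins that engage the receptors of adjacent cells. JAG1 (chromosome 20, 10637684 to 10673999, minus strand), the ligand whose loss causes the bile duct disorder Alagille syndrome, had 4 peaks, and they fell into 3 places. The strongest, chr20:10708872-10709120, lay 35.0 kb upstream with a signal value of 171, rank 2630 in the list, within introns of the lncRNA genes LINC01752 and ENSG00000270792. It held 2 TEAD motifs on opposite strands with 1 base between them, centred on the summit and 8 bp from it. Such a count of 2 or more TEAD motifs was found in 1.81% of all peaks. The peak nearest to the TSS, chr20:10671475-10671918, lay 2302 bp into the gene in an intron, with a signal value of 44.2 and an AP-1 motif 21 bp from the summit. The lncRNA gene ENSG00000270792 started 998 bp from it. The others, at chr20:10598352-10598795 and chr20:10591891-10592334, had signal values of 48.5 and 93.2 and lay beyond the 3′ end of JAG1, at 75.4 and 81.9 kb from its 5′ end. They were within the window only through a retained-intron transcript that starts inside JAG1. Both were in an intron of SLX4IP, and the first was 101 bp from an SLX4IP TSS. Each had an AP-1 motif, 26 and 4 bp from its summit, so AP-1 was present in the 3 weaker JAG1 peaks and the TEAD motif in the strongest alone. The sequence of the peak beside the SLX4IP start had 7706 partial matches of 50 or more bases elsewhere in the genome but no copy over 90% of its length.

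The surroundings of JAG1 were dense in peaks. It had 15 summits within 250 kb of a TSS and 31 within 500 kb, against medians of 4 and 9 over all protein-coding genes. The nearest peaks outside the rule lay on the SLX4IP side, from 59.3 kb on.

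DLL4 (chromosome 15, 40929340 to 40939073, plus strand), a ligand known chiefly from endothelial cells, had 1 peak with a high signal value. It lay at chr15:40941458-40941714, past the 3′ end and 12.2 kb from the canonical TSS, with a signal value of 168, above 87.1% of the list, and DLL4 was the nearest gene. It held no complete TEAD motif. The 6-letter core CATTCC lay 0.5 bp from the summit, preceded by CACGTG centred 13.5 bp from it, as in the sequence above. A best peak stronger than that of DLL4 was found for 14.2% of protein-coding genes.

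JAG2 (chromosome 14, 105140982 to 105168824, minus strand) had no peak by the rule, and its closest summits fell just past the limit. The nearest was at chr14:105091629-105091849, 55.6 kb away, with a signal value of 158 and the TEAD motif, and the next, at 59.0 kb, had a signal value of 253. GPR132 was the nearest protein-coding gene to both. The 50 kb limit therefore decided this gene. Just inside the limit stood JAG1 at 49163 bp and NOTCH3 at 49154 bp, with signal values of 93.2 and 64.9, and just outside it stood a DLL4 peak at 52193 bp, nearest to INO80, with 253 and the JAG2 peak at 55619 bp with 158.

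The target repressors are basic helix-loop-helix proteins that carry out much of the Notch response. HES1 (chromosome 3, 194136148 to 194138732, plus strand) had the strongest of the 13 peaks. It lay at chr3:194089540-194089919, 46.4 kb upstream of the only annotated HES1 TSS, with a signal value of 397. It ranked 321 of 21113, and 2.1% of protein-coding genes had a stronger best peak. The next summit was 115428 bp away, so it stood alone. Its TEAD motif was centred 6 bp from the summit, the E-box CAGATG 21.5 bp from it and an AP-1 motif 79 bp from it, and it was the 1 peak of the 13 with both the TEAD and AP-1 motifs. HES1 was the nearest protein-coding gene, and the lncRNA gene ENSG00000229964 started 1846 bp from the summit.

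HEYL (chromosome 1, 39623435 to 39639643, minus strand) had 2 peaks upstream, both weak. The nearer, chr1:39642813-39643256, lay 3392 bp from the TSS with a signal value of 35.4 and none of the searched motifs. The farther, chr1:39672611-39673054, lay 33.2 kb upstream with a signal value of 46.8, 726 bp from a TSS of the nucleotidase gene NT5C1A, and held only the core CATTCC 12.5 bp from the summit.

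HEY1 and HEY2 had no peak. HEY1 (chromosome 8, 79762371 to 79767857, minus strand) was the most isolated of the 10 genes, with its nearest summit 318 kb away, a distance exceeded by 7.1% of protein-coding genes. The nearest summit to HEY2 (chromosome 6, 125747664 to 125761269, plus strand) was 63.2 kb away, had a signal value of 38.4 and lay nearer to NCOA7. The median distance to the nearest summit was 34.3 kb for the 10 genes and 39.4 kb for all protein-coding genes.

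Motifs were compared over the 13 peaks in windows reaching 100 bp to each side of the summit, with either strand counted. The TEAD motif was present in 5 (38.5%, interval 17.7 to 64.5%), against 23.0% of all peaks in the list, and AP-1 was also present in 5, against 25.4%. Both background shares lie inside the interval. The peaks with the TEAD motif belonged to NOTCH1, NOTCH2, NOTCH3, JAG1 and HES1, so 5 of the 10 genes had such a peak, against 24.2% of protein-coding genes (interval of the 5 genes 23.7 to 76.3%). All 3 receptors were among them. The TEAD or the AP-1 motif was found in 9 of the 13 peaks (69.2%, interval 42.4 to 87.3%) and in 43.9% of the list, and both motifs in 1 (7.69%) and in 4.49%. The core CATTCC was found in 7 (53.8%, against 46.8%).

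Where the TEAD motif was present it lay close to the summit, at most 15 bp away in all 5 peaks. Central motifs were common in the whole list too, where 20.1% of peaks had it within 50 bp and 23.0% within 100 bp. The AP-1 motifs lay from 4 to 79 bp away. The 5 peaks with the TEAD motif had a median signal value of 81.2 and the 8 without it 60.1, and the whole list showed medians of 82.2 and 64.6. The TEAD peaks did not include any within 10 kb of a TSS of its gene, and the 3 summits that close, at NOTCH2, JAG1 and HEYL, held AP-1 in 2 cases and no motif in the other.

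The other searched motifs were found in few of the 13 peaks or in none. The RBPJ motif GTGGGAA was present in 1, at NOTCH1 (7.69%, against 4.64% of the list), and CACGTG in 2, at NOTCH1 and DLL4 (15.4%, interval 4.33 to 42.2%, against 2.71% of the list, which lies below that interval). The E-box CAGATG was present in 1 of 13, at HES1, against 16.7% of the list. The RUNX motif TGTGGTT was found in 0 of 13 (interval up to 22.8%) and in 9.53% of the list. Several motifs were read in the same 13 peaks without a test, and these are matches of letters and not measured sites of the factors.

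The rest of the pathway was read from 53 further genes grouped by role. By the same rule 37 of them had at least 1 peak (69.8%, interval 56.5 to 80.5%), against 56.2% of protein-coding genes, with 114 distinct peaks in all and none shared with the 10 genes. Of these genes, 10 had a summit less than 2.5 kb from a TSS (18.9%, against 16.7%), and 17 had a peak with the TEAD motif (32.1%, against 24.2%). By role, the shares with a peak among groups of several genes ran from 2 of 4 other ligands to 7 of 9 genes of receptor cleavage. Several of these genes are long, and per 100 kb of window the median was 0.999 peaks, against 0.67 over all protein-coding genes. Means were not compared here, and that of all protein-coding genes was 0.97.

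The highest counts of peaks per gene stood at MAML2, SPEN and RBPJ, whose windows are long. Overlapping peaks were counted apart, and the genes with such overlaps included RBPJ, MAML2, MAML3, NOTCH4 and ITCH. The weaker peak of the overlapping pair had a −log10 q-value of 1.15 at MAML2, 0.31 at MAML3 and 0.47 at NOTCH4. The stronger peak of each of these pairs had 4.76. MAML2, a Mastermind coactivator, had 15 peaks, all in its introns over a long gene body, and MAML3 had 5. SPEN, a corepressor that RBPJ recruits when Notch is inactive, had 11. RBPJ, which is named here after its values were seen, had 8, all in introns of its own gene, with the strongest at 346 and 4052 bp from a TSS. In the other roles the most were 6 at APH1B, a subunit of the γ-secretase that releases the intracellular part, and 4 at the ubiquitin ligase gene ITCH. There were 3 each at the noncanonical ligand gene DLK2, at NOTCH4 and at the glycosyltransferase gene MFNG, and 2 each at HES3 and HES7. The gene's own TSS was the nearest protein-coding one for 10 peaks at MAML2, 5 at SPEN, 8 at RBPJ and 5 at APH1B. It was so for 3 at ITCH and 2 at NOTCH4, and for 0 at DLK2, MFNG, HES3 and HES7. The peaks of these last genes were closer to starts of other genes. The 2 at NOTCH4 overlapped each other, and the lncRNA gene TSBP1-AS1 started 17 and 135 bp from their summits. Per 100 kb of window the order was different, with 5.43 peaks at SPEN, 5.19 at APH1B, 3.60 at MAML2 and 2.90 at DLK2. Next came 2.64 at MFNG, 2.36 at NOTCH4 and 2.18 at RBPJ, then 2.0 each at HES3 and HES7, 1.745 at ITCH and 1.03 at MAML3.

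Summits within 2.5 kb of a TSS lay at several steps of the pathway, in part beside starts of transcripts other than the canonical one. The summit at APH1B lay 9 bp from a TSS, but 14.1 kb from the canonical one, with a signal value of 367 and 2 TEAD motifs. At FBXW7, whose product marks the intracellular part for degradation, a summit with 72.9 lay 14 bp from the start of an internal transcript and 183.2 kb from the canonical TSS. NUMB, which encodes an inhibitor of Notch, had a summit at 169 bp with 41.0, and SPEN had summits at 91 and 1112 bp with 60.9 and 49.6, at 11.7 and 12.7 kb from its canonical TSS. MAML1 had a summit at 114 bp with 59.2, and MAML3 had neighbouring summits at 181 and 380 bp with 9.24 and 35.3. These MAML3 peaks overlapped, and the −log10 q-value was only 0.31 for that at 181 bp, against 4.76 for the other. LFNG, whose product adds sugars to the receptors, had summits at 373 and 570 bp with 119 and 64.6. These LFNG summits were 3.4 and 2.5 kb from its canonical TSS. NOTCH4 had a summit at 1345 bp with 48.2, which was 28.4 kb from its canonical TSS and 109 bp from the start of GPSM3, and the ligase gene NEURL1 had neighbouring summits at 1173 and 1372 bp with 32.9 and 54.9.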

How the data were processed

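Single-end reads of TEAD4 ChIP-seq were mapped to hg38 with Chromap by the authors, who ran the ENCODE IDR pipeline and left out replicate 2. The deposited list for replicates 1 and 3 holds an IDR score, a signal value and a −log10 q-value per peak, each as the authors' pipeline gave it. What the columns mean was inferred from the layout and values, and the peak caller is not given in the sources used here. The 10 genes, the 53 others, the motifs and the rule were chosen with earlier results of these data known, so no test was run and shares carry Wilson 95% intervals. Promoter sequences are those of RefSeq (GRCh38.p14, 250 bases before to 50 after the start). Named were all 10 genes with their nearest and strongest peaks and every peak within 2.5 kb of a TSS, and of the other genes those with the most peaks per role and those with a peak within 2.5 kb, apart from 1 that is not reported here. Copies of peak sequences were searched with blastn. The code was tested on simulated data. Python 3.11.15, numpy 2.4.6, pandas 2.3.3, scipy 1.17.1, pysam 0.24.0 and matplotlib 3.10.9 were used. Alternatives changed the distance, the TSSs, the peaks kept and the motif window.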

Additional observations from a re-analysis of the deposited data

How the results depend on the processing

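Over 7 results 52 alternatives were run, and in 10 of them a count moved by over 1.5 times or a share left its interval. With a distance of 10 kb, 3 of the 10 genes kept a peak (NOTCH2, JAG1 and HEYL), with 3 peaks in all, of which 100% were nearest to their gene, 66.7% had AP-1 and 0.0% the TEAD motif, and 21 of the 53 other pathway genes had a peak. With 100 kb, 27 peaks were assigned and 29.6% were nearest to their gene. Only peaks above the median signal value left 7 assigned. Counting lncRNA starts as well, 23.1% of the 13 peaks were nearest to the Notch gene. Inside their intervals, but by over 1.5 times, moved the median signal value, from 71.8 to 44.2 at 10 kb and to 168 with only peaks above the list's median, and the AP-1 share, from 38.5% to 22.2% at 100 kb. Taking only the 5′ end of each gene left JAG1 with 2 peaks in place of 4. Since replicates 1 and 3 are merged in the peaks used here, neither a paired analysis nor leaving out a replicate could be run, and the effect of depth is unknown.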

Other observations

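The letters of the RBPJ motif were found in the promoters of 3 target repressors. Of the 10 genes, all but the target repressor HEY1 matched an entry in the RefSeq promoters, which span 250 bases before to 50 bases after the start. The TEAD motif ACATTCC and the AP-1 motif were found in 0 of these 9 promoters, as was CACGTG, and in 3.46%, 4.95% and 7.26% of all promoters in the table, so that 0 of 9 does not set these promoters apart. The RBPJ motif GTGGGAA was found in 3 of the 9, those of HES1, HEY2 and HEYL, and in 6.25% of all. No TEAD4 summit lay in any of these 3 promoters, and the nearest summits were 46.4, 63.2 and 3.4 kb from a TSS of the gene. Shown 5′ to 3′ on the strand of the gene in GRCh38.p14, with the motif in capitals (TTCCCAC is its reverse complement), they read as follows.
HES1 promoter, chr3:194136053-194136079, plus strand: gaaagttactGTGGGAAagaaagtttg
HEY2 promoter, chr6:125749409-125749435, plus strand: cgcggccgcgTTCCCACgcctcggctg
HEYL promoter, chr1:39639805-39639831, minus strand: gcctagggccTTCCCACggctcggcgg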
